A study of Mus musculus with 6 samples.

Results

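The genes described here were listed together as the ATF4 stress response with serine, one-carbon and proline synthesis enzymes. The list also holds transamination and proline breakdown genes and the locus Cebpzos, and these data do not show which members ATF4 controls. ATF4 is a basic leucine zipper transcription factor whose protein is made mainly when stress kinases phosphorylate the translation factor eIF2. It pairs with C/EBP proteins on a composite DNA element and raises genes for amino acid synthesis, amino acid import, tRNA charging and recovery from stress. In macrophages exposed to LPS, a bacterial ligand of TLR4, serine synthesis and one-carbon metabolism are known to support the production of inflammatory cytokines. The members came from a list of 38 names, matched by symbol to the deposited gene identifiers. Gadd34 is an older name of Ppp1r15a and Nars2os found no match, which left 36 genes. Of these, 29 had 60 or more counts summed over the 6 libraries, and all 29 were among the 11286 genes tested of 25044 in the table.

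RNA was sequenced from thioglycollate-elicited peritoneal macrophages of wild type C57BL/6 mice aged 8 weeks. The trametinib cultures received 100 nM trametinib, which blocks MEK1 and MEK2, the kinases directly above ERK, for 2 h and then LPS at 100 ng/ml for 12 h, in 3 libraries. The vehicle cultures received the vehicle DMSO in its place and the same LPS, in 3 libraries. Both groups therefore carry the LPS stimulus, and no culture without LPS was analysed here. The labels name 3 mice for the study and do not tie libraries to mice, so p values measure only the spread between these samples, which may be partly technical.

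With trametinib, 13 of the 29 members fell, 3 rose and 13 did not pass the threshold of an adjusted p under 0.05. Among all genes tested, 18.4% were called lower, 15.8% were called higher and 34.3% were called in either direction. Of the 13 that fell, 7 were at least 2-fold lower, beside 3.66% of all genes tested, and none of the 3 that rose was 2-fold higher, beside 2.94%. The median log2 ratio (the fitted log2 fold change, trametinib over vehicle) was −0.28 over the members and −0.0053 over all genes tested. Of the 9 amino acid synthesis genes, 6 fell and none rose, with a median of −0.74. Of the 15 stress factors and effectors, 7 fell, 2 rose and 6 did not pass, with a median of −0.42. Of the 4 genes of transamination and proline breakdown, 1 rose and none fell, with a median of 0.32. The trametinib and vehicle libraries did not overlap in 19 of the 29 members, beside 49.3% of all genes tested. Without trametinib replicate 1 or vehicle replicate 2, 1 member rose, and among the stress factors and effectors 1 rose when trametinib replicate 1, vehicle replicate 1 or vehicle replicate 2 was left out.

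**Figure D1:**
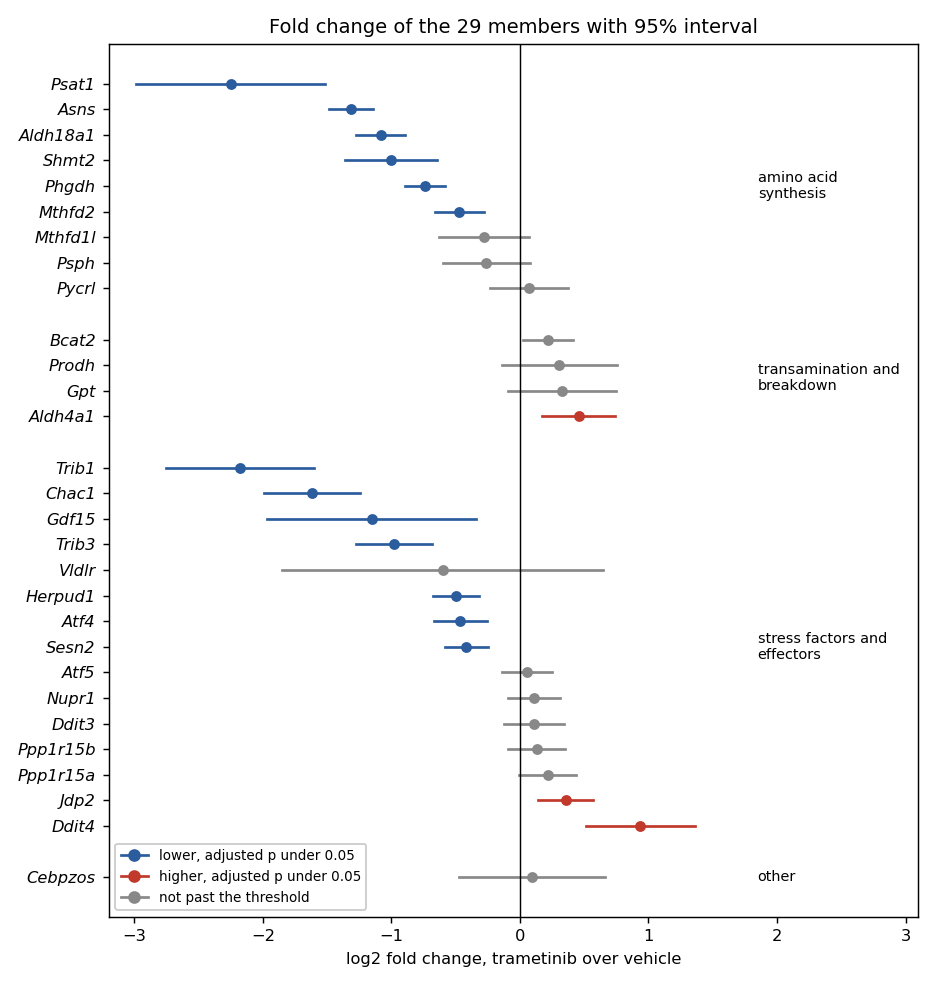
Log2 ratio of each of the 29 members, trametinib over vehicle, with its 95% interval from the edgeR fit (n = 3 libraries per group). Genes are grouped by role from top to bottom, blue marks a fall, red a rise and grey a gene that did not pass. Psat1, Trib1, Chac1 and Asns lie farthest to the left, and Ddit4 lies farthest to the right.

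Library totals ran from 17453778 to 19648467 counts. Macrophage markers summed to 14767 to 16402 CPM (counts scaled to library size with TMM factors) in the trametinib libraries and 15783 to 17563 CPM in the vehicle libraries, a sum carried mostly by Lyz2 at 9724 ± 775 CPM with trametinib and 10179 ± 534 CPM with vehicle (SD, n = 3 each). Within this list Adgre1, the gene of F4/80, fell to 915 ± 61.8 CPM with trametinib, against 1719.8 ± 212 CPM with vehicle (log2 ratio −0.91, adjusted p 0.000502). Itgam, the gene of CD11b, fell to 30.8 ± 6.47 CPM with trametinib, against 69.1 ± 25.1 CPM with vehicle (log2 ratio −1.16, adjusted p 0.0437; span over the settings 0.000544 to 0.134). Cd68 and Csf1r did not pass (log2 ratios −0.0035 and −0.0073). Marker lists of B cells, neutrophils, dendritic cells, eosinophils and mast cells, T and NK cells, resident large peritoneal macrophages, and mesothelium with fibroblasts summed to at most 25.4 CPM per list in any library. That highest sum belonged to the T and NK cell list, at 16.3 to 25.4 CPM with trametinib and 10.6 to 17.5 CPM with vehicle, and the part of these marker differences in the results was not tested. Retnlg, Mcpt4 and Msln, each from another of these lists, had 0 counts in every library. In bulk RNA of this kind, fewer cells of a type and less RNA per cell cannot be told apart. Vehicle replicate 3 was nearer to the trametinib group than the other vehicle libraries were. The first principal component put the trametinib libraries at 26.4 to 35.5, vehicle replicate 3 at −16.2 and the others at −38.1 and −39.3. Dusp6, an ERK phosphatase gene that ERK itself induces, had 0, 0.0537 and 0.0557 CPM in the trametinib libraries, against 14.5, 17.1 and 2.11 CPM in vehicle replicates 1, 2 and 3. The part of this library's difference in the results was not tested. Without vehicle replicate 3, the same 13 members fell, the same 3 rose and Ppp1r15a rose as well.

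The C/EBP-ATF response element, the composite site of ATF4 and its C/EBP partners, was searched in the RefSeq promoter windows (GRCm38.p6, 250 bases before to 50 bases after each transcription start). The letters were TGATGNAA on either strand, and in the members' windows no match overlapped one of the other motifs searched. Of the 25 members with a window, 7 held a match, beside 4.51% of the 27025 genes searched. The search left out a chromosome that holds no member. The members were listed as an ATF4 programme, so a higher share among them could be foreseen. The 7 were Asns, Chac1, Herpud1 and Trib3, which fell, Jdp2, which rose, and Nupr1 and Vldlr, which did not pass. Of the members with a window, 4 of 12 that fell, 1 of 3 that rose and 2 of 10 that did not pass held a match. Vldlr had only 61 counts in all. Whether the match goes with the direction of change was not tested. Trib3 had its match 15 bases after the start. The stretches around the other 6 matches are printed. Each runs 5′ to 3′ along the gene's strand, and capitals mark the match.
Asns (fell; chr6:7693214-7693243, minus strand): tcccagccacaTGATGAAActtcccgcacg
Chac1 (fell; chr2:119351023-119351082, plus strand): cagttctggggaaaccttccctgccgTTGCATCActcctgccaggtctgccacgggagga
Herpud1 (fell; chr8:94386291-94386350, plus strand): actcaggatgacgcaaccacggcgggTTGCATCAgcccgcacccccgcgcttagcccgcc
Jdp2 (rose; chr12:85599357-85599415, plus strand): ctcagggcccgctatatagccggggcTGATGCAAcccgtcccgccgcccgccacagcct
Nupr1 (did not pass; chr7:126625562-126625591, minus strand): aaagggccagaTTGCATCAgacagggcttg
Vldlr (did not pass; chr19:27216809-27216838, plus strand): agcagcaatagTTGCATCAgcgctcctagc
The core began 23 bases before the RefSeq start in Asns, where it read along the gene. It began 193 bases before the start in Chac1, 112 in Herpud1, 110 in Nupr1 and 200 in Vldlr, and read against the gene in all of these. In Jdp2 it began 33 bases before one of its annotated starts and read along the gene. In Asns, Nupr1 and Vldlr, an exon of the GENCODE annotation touched the wider region first taken around the match, so a shorter stretch is printed. The Asns, Nupr1, Vldlr and Jdp2 stretches lie inside the GENCODE spans of their own genes. These spans run from 7675169 to 7693254 for Asns, 126623249 to 126630861 for Nupr1, 27216484 to 27254231 for Vldlr and 85599027 to 85639878 for Jdp2. These stretches therefore precede the RefSeq start used but do not lie upstream of every annotated start. Whether a printed stretch itself lies in an exon was not checked. The E-box CACGTG, the site of MYC and related factors, stood in the windows of Aldh18a1, Gdf15 and Nupr1, 3 of 25 members, beside 8.09% of the genes searched. The cAMP response element TGACGTCA stood in the window of Ppp1r15a, 1 of 25 members, beside 2.03% of the genes searched. These matches are descriptions of the letters and do not show binding.

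Serine synthesis starts from a glycolytic intermediate and runs through PHGDH, PSAT1 and PSPH. Phgdh, the gene of its entry enzyme (ENSMUSG00000053398, mm10 chromosome 3, 98313170 to 98339990), had 84.4, 84.8 and 93.3 CPM in the trametinib libraries, against 142, 146 and 151 CPM in the vehicle libraries. All 3 trametinib libraries lay below all 3 vehicle libraries, and the gene fell to 0.599 of its vehicle level (log2 ratio −0.74, SE 0.07, adjusted p 0.000268). Psat1, the gene of the aminotransferase that follows (ENSMUSG00000024640, mm10 chromosome 19, 15904678 to 15947337), had 4.20, 3.49 and 3.34 CPM in the trametinib libraries, against 20.5, 21.8 and 10.2 CPM in the vehicle libraries. The groups did not overlap, although vehicle replicate 3 stood nearest to the trametinib libraries. Psat1 fell to 0.210 of its vehicle level, the lowest fold among the 29 members (log2 ratio −2.25, SE 0.31, adjusted p 0.00220). Without vehicle replicate 3 its log2 ratio was −2.52. Psph, the gene of the phosphatase that releases serine, had 4.61, 5.59 and 6.29 CPM in the trametinib libraries, against 5.89, 6.98 and 6.92 CPM in the vehicle libraries. The groups overlapped, and Psph did not pass (log2 ratio −0.26, SE 0.15, adjusted p 0.211, 95% interval −0.60 to 0.079). The exons of Psph share 452 bases with Cct6a on the opposite strand, 10.4% of its exonic length, and the strand setting of the counting is not given in the sources used here. Per kilobase of exon, Psat1 had a level of 0.865 CPM per kb with trametinib and 4.11 CPM per kb with vehicle. The level of Psph was 1.27 CPM per kb with trametinib and 1.52 CPM per kb with vehicle, so Psat1 stood below Psph with trametinib and above it with vehicle. Phgdh was the most abundant of the 3 on this scale, at 35.2 CPM per kb with trametinib and 58.8 CPM per kb with vehicle.

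The mitochondrial one-carbon enzymes turn serine into glycine and folate-bound carbon. Of their genes, Shmt2 and Mthfd2 fell and Mthfd1l did not pass. All of these log2 ratios were negative, and differences between the genes were not tested. Shmt2, the gene of the mitochondrial enzyme that splits serine, had 11.9, 9.94 and 16.0 CPM in the trametinib libraries, against 25.3, 26.1 and 24.3 CPM in the vehicle libraries. The groups were well apart, with trametinib replicate 3 the highest of its group, and Shmt2 fell to 0.499 of its vehicle level (log2 ratio −1.0, SE 0.16, adjusted p 0.00206). Mthfd2, the gene of the dehydrogenase and cyclohydrolase that oxidises the carbon unit, had 165, 173 and 155 CPM in the trametinib libraries, against 231, 243 and 211 CPM in the vehicle libraries. It fell to 0.722 of its vehicle level without overlap (log2 ratio −0.47, SE 0.08, adjusted p 0.00333), a smaller fall than that of Shmt2 in this fit. Per kilobase it was the most abundant of the amino acid synthesis genes, at 47.2 CPM per kb with trametinib and 65.4 CPM per kb with vehicle. Mthfd1l, the gene of the enzyme that releases formate from mitochondria, had 5.38, 6.77 and 7.69 CPM in the trametinib libraries, against 9.03, 7.53 and 7.56 CPM in the vehicle libraries. Trametinib replicate 3 lay within the vehicle range, and Mthfd1l did not pass (log2 ratio −0.28, SE 0.15, adjusted p 0.191, 95% interval −0.63 to 0.068). Aldh1l2, which oxidises mitochondrial formyl-folate, had 6 counts over the trametinib libraries and 22 over the vehicle libraries and stayed under the minimum of 60.

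Asns, the gene of asparagine synthetase (ENSMUSG00000029752, mm10 chromosome 6, 7675169 to 7693254), had 43.1, 43.5 and 41.8 CPM in the trametinib libraries, against 107, 115 and 97.2 CPM in the vehicle libraries. The trametinib libraries lay close together and far below every vehicle library. Asns fell to 0.402 of its vehicle level (log2 ratio −1.32, SE 0.08, adjusted p 9.80e-05), with the smallest adjusted p of the 29 members. Summed over the 9 amino acid synthesis genes, the trametinib libraries held 337, 345 and 344 CPM, against 574, 601 and 539 CPM in the vehicle libraries. Mthfd2 and Phgdh carried most of this sum. Summed over the 15 stress factors and effectors, the trametinib libraries held 1276, 1226 and 1101 CPM, against 1419, 1359 and 1222 CPM in the vehicle libraries. The groups overlapped in that second sum.

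**Figure D2:**
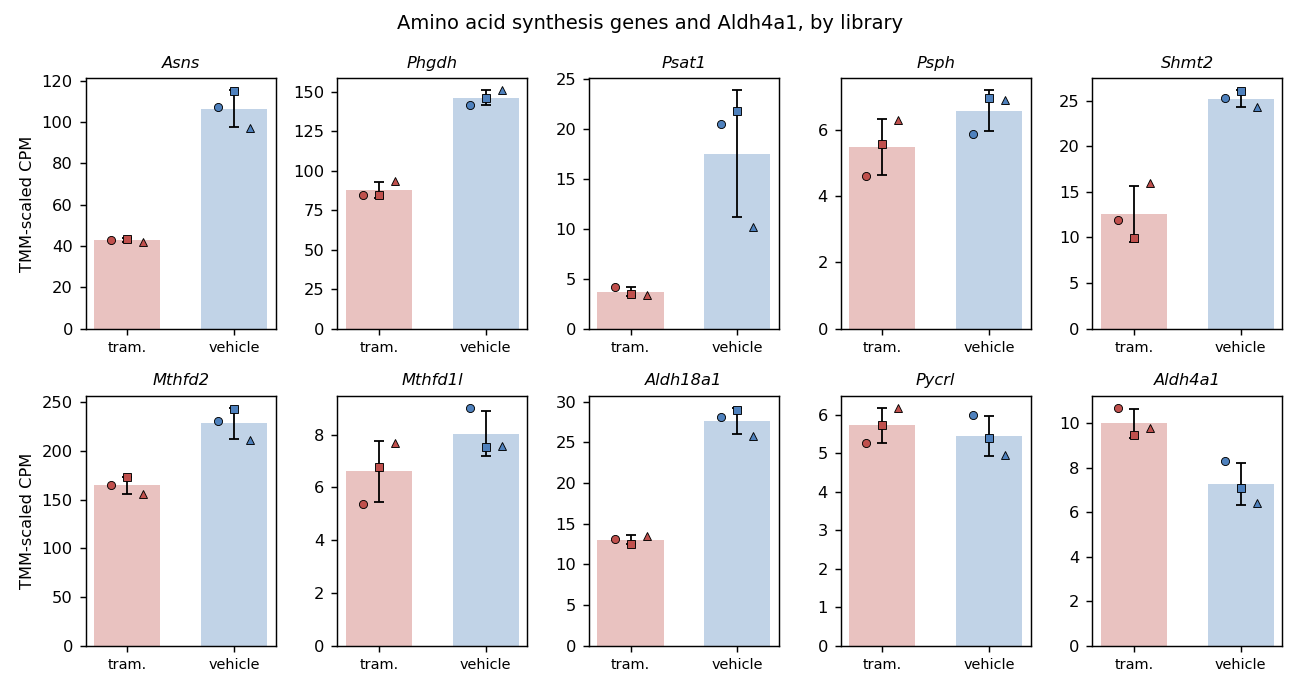
Expression of the 9 amino acid synthesis genes and of Aldh4a1 in each library, in TMM-scaled CPM on linear axes that start at 0. Bars are group means, error bars are SD and points are libraries (circle, square and triangle for replicates 1, 2 and 3), with trametinib on the left. Asns, Phgdh, Psat1, Shmt2, Mthfd2 and Aldh18a1 show no overlap between the groups, with trametinib lower, whereas Psph, Mthfd1l and Pycrl overlap.

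Proline is made from glutamate by ALDH18A1 and the PYCR reductases, and is broken down by PRODH and ALDH4A1. Aldh18a1, the gene of the synthase that starts the route (ENSMUSG00000025007, mm10 chromosome 19, 40550257 to 40588463), had 13.1, 12.5 and 13.5 CPM in the trametinib libraries, against 28.1, 29.0 and 25.8 CPM in the vehicle libraries. It fell to 0.472 of its vehicle level without overlap (log2 ratio −1.08, SE 0.08, adjusted p 0.000163). Pycrl, a gene of the last step, had 5.26, 5.75 and 6.18 CPM in the trametinib libraries, against 6.00, 5.41 and 4.97 CPM in the vehicle libraries. Its groups overlapped and it did not pass (log2 ratio 0.071, SE 0.13, adjusted p 0.714, 95% interval −0.23 to 0.37). Pycr1, the mitochondrial reductase gene, had only 11 counts over the trametinib libraries and 31 over the vehicle libraries, under the minimum of 60. In the direction of breakdown, Aldh4a1 had 10.7, 9.46 and 9.80 CPM in the trametinib libraries, against 8.30, 7.09 and 6.43 CPM in the vehicle libraries. It rose 1.37-fold (log2 ratio 0.46, SE 0.13, adjusted p 0.0221), and it no longer passed when trametinib replicate 1 (adjusted p 0.0869) or vehicle replicate 2 (0.0722) was left out. The adjusted p of Aldh4a1 spanned 0.0134 to 0.0869 over the settings. The readthrough gene Gm21969, not in the table, shares 32.5% of the exonic length of Aldh4a1 on the same strand, so its reads could be counted as Aldh4a1. Prodh, the first enzyme of breakdown, had 2.90, 3.17 and 4.18 CPM in the trametinib libraries, against 2.64, 2.51 and 3.13 CPM in the vehicle libraries, with an overlap, and did not pass (log2 ratio 0.31, adjusted p 0.261, 95% interval −0.14 to 0.75).

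Unlike the aminotransferase gene Psat1, the transaminase genes Bcat2 and Gpt did not pass. Bcat2, the mitochondrial transaminase of branched-chain amino acids, had 42.5, 40.3 and 46.2 CPM in the trametinib libraries, against 36.2, 40.0 and 34.6 CPM in the vehicle libraries. Each trametinib library was just above every vehicle library, but the adjusted p was 0.0763 (log2 ratio 0.22, span of adjusted p 0.0619 to 0.192 over the settings). Gpt, an alanine transaminase, had 2.19, 2.26 and 2.51 CPM in the trametinib libraries, against 1.91, 1.79 and 1.84 CPM in the vehicle libraries without overlap (log2 ratio 0.33, adjusted p 0.200, 95% interval −0.089 to 0.75). Bcat1, the cytosolic relative of Bcat2, had 2 counts over the trametinib libraries and 1 over the vehicle libraries. The transsulfuration genes, which make cysteine from homocysteine, were also scarce. Cth had 11 counts over the trametinib libraries and 15 over the vehicle libraries, and Cbs had 1 count over the trametinib libraries and 0 over the vehicle libraries.

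Ratios between members within a library do not depend on library scaling. The 4 ratios were chosen with the values known, so their separation is a description and has no test. Asns over Atf4 was 0.171, 0.166 and 0.178 in the trametinib libraries, against 0.295, 0.319 and 0.317 in the vehicle libraries. These values set a target beside the transcript of its regulator. Aldh18a1 over Aldh4a1, proline synthesis over breakdown, was 1.22, 1.32 and 1.38 with trametinib, against 3.39, 4.09 and 4.01 with vehicle. Trib3 over Ddit3 averaged 0.229 ± 0.00446 with trametinib and 0.485 ± 0.0383 with vehicle (SD, n = 3 each). Psat1 over Phgdh averaged 0.0422 ± 0.00702 with trametinib and 0.121 ± 0.0459 with vehicle, and vehicle replicate 3 had the lowest vehicle ratio, 0.0677.

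**Figure D3:**
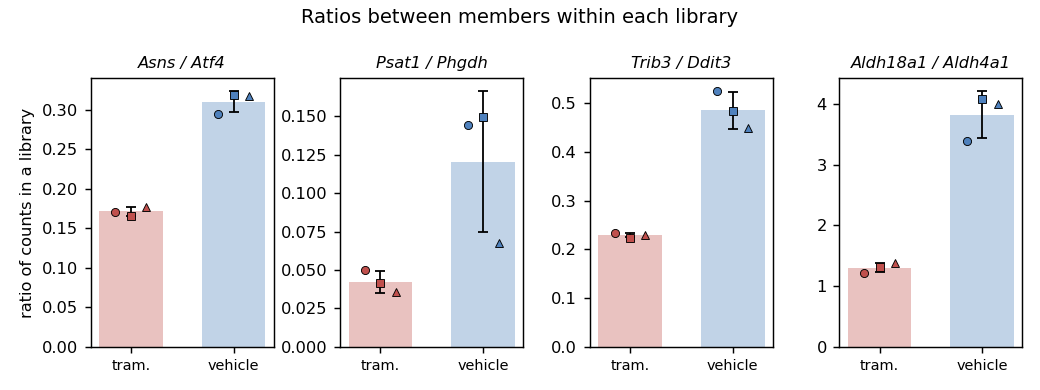
Ratios of 4 pairs of members within each library, on linear axes that start at 0. Bars are group means, error bars are SD, points are libraries (circle, square and triangle for replicates 1, 2 and 3), and trametinib is on the left. In all 4 panels the highest trametinib library lies below the lowest vehicle library, by the narrowest margin for Psat1 over Phgdh.

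Among the transcription factors, Atf4 itself (ENSMUSG00000042406, mm10 chromosome 15, 80255184 to 80257541) had 252, 262 and 235 CPM in the trametinib libraries, against 365, 361 and 306 CPM in the vehicle libraries. The groups did not overlap, and Atf4 fell to 0.726 of its vehicle level (log2 ratio −0.46, SE 0.09, adjusted p 0.00527), in size below the falls of Psat1 and Asns. The transcript does not report the amount of ATF4 protein, which is set largely by translation. Atf5, a close relative that is regulated in the same way, had 182, 165 and 154 CPM in the trametinib libraries, against 171, 159.6 and 152 CPM in the vehicle libraries. These groups overlapped, and Atf5 did not pass (log2 ratio 0.053, SE 0.09, adjusted p 0.667, 95% interval −0.14 to 0.25). Ddit3, the gene of the stress factor CHOP, had 86.1, 93.0 and 72.8 CPM in the trametinib libraries, against 79.8, 83.6 and 69.9 CPM in the vehicle libraries. It overlapped too and did not pass (log2 ratio 0.11, SE 0.10, adjusted p 0.437, 95% interval −0.12 to 0.35). Jdp2, a repressor that pairs with JUN and ATF proteins, had 70.7, 59.5 and 55.9 CPM in the trametinib libraries, against 48.4, 46.2 and 50.6 CPM in the vehicle libraries. The trametinib libraries lay above the vehicle libraries, and Jdp2 rose 1.28-fold (log2 ratio 0.36, SE 0.09, adjusted p 0.0185). This call was lost without trametinib replicate 1 and without vehicle replicates 1 and 2 (adjusted p 0.0695, 0.0595 and 0.0692), and its adjusted p spanned 0.00482 to 0.0695 over the settings. Nupr1, a small nuclear protein induced by stress, had 129, 129 and 104 CPM in the trametinib libraries, against 114, 109 and 113 CPM in the vehicle libraries. Trametinib replicate 3 lay below the vehicle libraries and the others above, and Nupr1 did not pass (log2 ratio 0.11, SE 0.09, adjusted p 0.387). Without trametinib replicate 3 it passed with a log2 ratio of 0.20 (adjusted p 0.0495; span over the settings 0.0495 to 0.723).

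Among the effectors, the tribbles pseudokinases fell. Trib1, which brings C/EBP alpha to the ubiquitin ligase COP1 (ENSMUSG00000032501, mm10 chromosome 15, 59648350 to 59657099), had 5.09, 6.66 and 6.91 CPM in the trametinib libraries, against 32.9, 32.9 and 19.0 CPM in the vehicle libraries. Every trametinib library was far below the vehicle libraries, and Trib1 fell to 0.221 of its vehicle level (log2 ratio −2.18, SE 0.24, adjusted p 0.000983). Trib3, which ATF4 and CHOP induce and which restrains both, had 20.0, 20.9 and 16.8 CPM in the trametinib libraries, against 41.8, 40.4 and 31.3 CPM in the vehicle libraries. It fell to 0.508 of its vehicle level without overlap (log2 ratio −0.98, SE 0.13, adjusted p 0.000965), while Ddit3 did not pass. Chac1, the gene of an enzyme that breaks down glutathione, had 3.61, 2.69 and 3.62 CPM in the trametinib libraries, against 10.8, 11.1 and 8.59 CPM in the vehicle libraries. The groups did not overlap, and Chac1 fell to 0.325 of its vehicle level (log2 ratio −1.62, SE 0.16, adjusted p 0.000362).

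Genes that connect the response to the kinase mTORC1 went in opposite directions. Sesn2, a leucine sensor that restrains mTORC1, had 43.1, 40.0 and 38.9 CPM in the trametinib libraries, against 55.3, 55.9 and 51.5 CPM in the vehicle libraries. It fell to 0.749 of its vehicle level (log2 ratio −0.42, SE 0.07, adjusted p 0.00303). Ddit4, the gene of REDD1, another inhibitor of mTORC1, had 4.32, 3.17 and 3.56 CPM in the trametinib libraries, against 2.02, 1.79 and 1.95 CPM in the vehicle libraries, from 59 to 73 counts per trametinib library and 32 to 36 counts per vehicle library. It rose 1.92-fold (log2 ratio 0.94, SE 0.19, adjusted p 0.00552), the largest rise among the 29 members, and it is a low-count gene.

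The phosphatase subunits that remove phosphate from eIF2 did not pass. Ppp1r15a, the stress-induced subunit GADD34, had 122, 114 and 117 CPM in the trametinib libraries, against 105, 86.1 and 113 CPM in the vehicle libraries. The trametinib libraries lay just above the vehicle libraries (log2 ratio 0.22, SE 0.10, adjusted p 0.117, 95% interval −0.0042 to 0.44). With the replicate number as a block its adjusted p was 0.0461, and without vehicle replicate 3 it was 0.0174 with a log2 ratio of 0.30; span over the settings 0.0174 to 0.359. Ppp1r15b, the constitutive subunit, had 290.2, 279 and 240.2 CPM in the trametinib libraries, against 253, 261 and 225 CPM in the vehicle libraries, with an overlap (log2 ratio 0.13, SE 0.10, adjusted p 0.327, 95% interval −0.089 to 0.35). Herpud1, the gene of a membrane protein that helps to clear misfolded proteins from the endoplasmic reticulum, had 20.2, 17.9 and 19.2 CPM in the trametinib libraries, against 26.2, 26.6 and 27.9 CPM in the vehicle libraries. The groups did not overlap, and Herpud1 fell to 0.708 of its vehicle level (log2 ratio −0.50, SE 0.08, adjusted p 0.00205). Vldlr, a lipoprotein receptor gene, had 61 counts in all, just above the minimum, where Pycr1, the nearest gene below it, had 42. It had 0.414, 0.806 and 0.111 CPM in the trametinib libraries, against 0.561, 0.893 and 0.594 CPM in the vehicle libraries, and the wide interval of its log2 ratio (−1.85 to 0.65) held 0. Cebpzos, a locus that overlaps Cebpz on the opposite strand, had 2.78, 2.15 and 2.23 CPM in the trametinib libraries, against 2.52, 1.51 and 2.65 CPM in the vehicle libraries (log2 ratio 0.10, adjusted p 0.797).

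**Figure D4:**
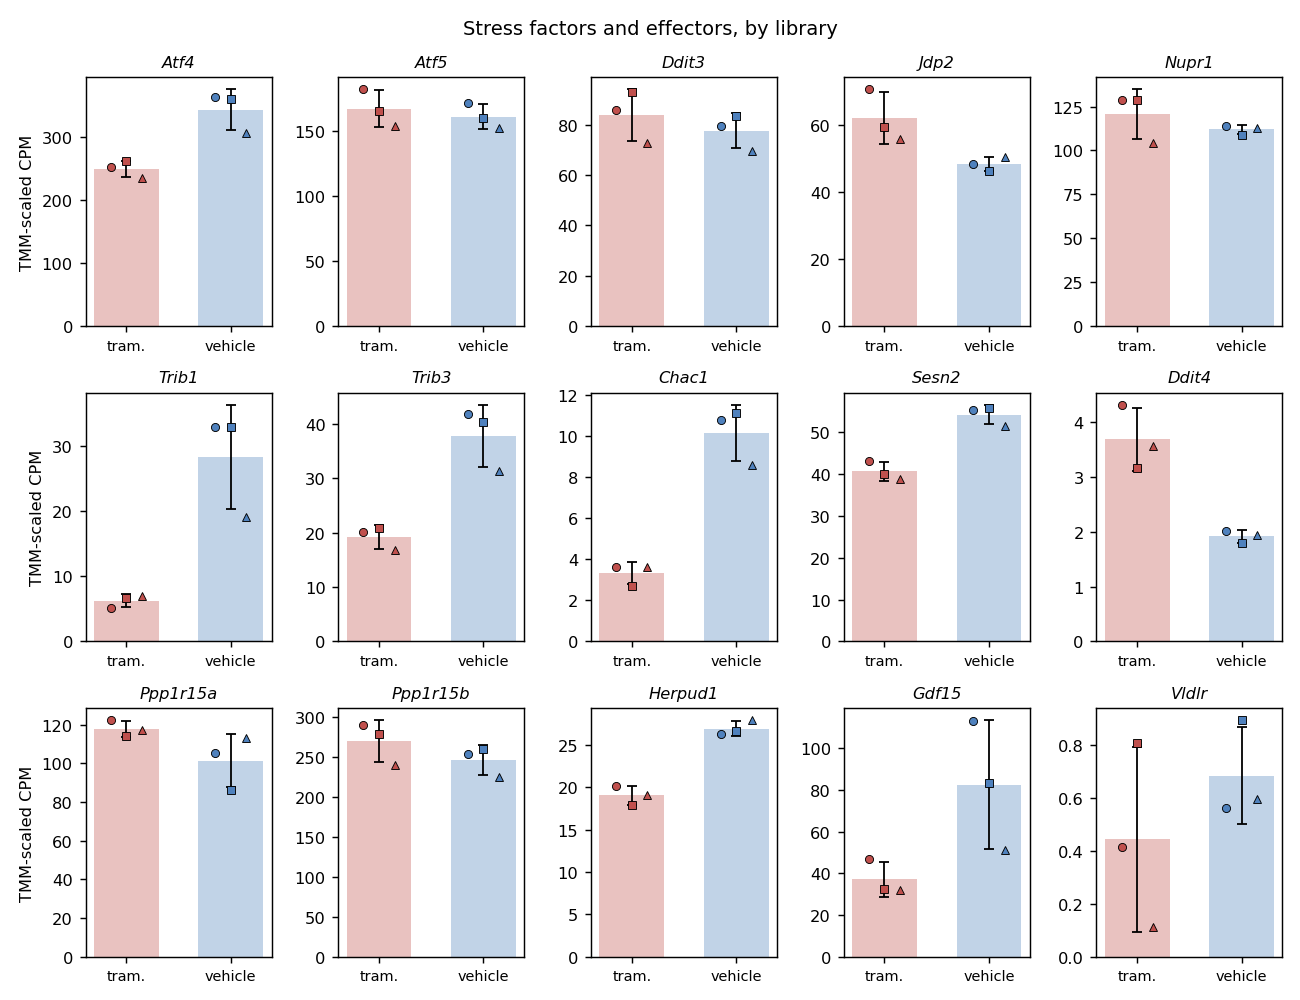
Expression of the 15 stress factors and effectors in each library, in TMM-scaled CPM on linear axes that start at 0. Bars are group means, error bars are SD, points are libraries (circle, square and triangle for replicates 1, 2 and 3), and trametinib is on the left. Atf4, Trib1, Trib3, Chac1, Sesn2, Herpud1 and Gdf15 are lower with trametinib without overlap, Ddit4 and Jdp2 are higher, and Atf5, Ddit3, Nupr1, Ppp1r15b and Vldlr overlap.

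Of the secreted members, Gdf15, a stress-induced cytokine of the TGF-beta superfamily, was abundant enough to be counted among the 29. It had 46.8, 32.5 and 32.1 CPM in the trametinib libraries, against 113, 83.4 and 51.0 CPM in the vehicle libraries. The vehicle libraries were spread widely, with vehicle replicate 3 close to trametinib replicate 1, and the groups did not overlap. Gdf15 fell to 0.450 of its vehicle level (log2 ratio −1.15, SE 0.33, adjusted p 0.0429). The call rested on the settings used: the adjusted p was 0.121 without a filter on low counts and 0.0542 with limma-voom. It was 0.0563, 0.127 and 0.124 without trametinib replicates 1, 2 and 3, and 0.0751 and 0.130 without vehicle replicates 1 and 2. With the replicate block it was 0.00522, and the span over the settings was 0.00522 to 0.130. Stc2, the gene of a secreted glycoprotein, had 17 counts over the trametinib libraries and 4 over the vehicle libraries, too few to be used. Fgf21, the gene of a metabolic hormone, had 0 counts in every library, which by counting error alone allows up to 3 counts per library.

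The vehicle libraries themselves varied along the list. In 11 of the 13 members that fell, vehicle replicate 3 was the lowest vehicle library, the exceptions being Phgdh and Herpud1. The same held for 1 of the 3 members that rose and 5 of the 13 that did not pass. This library was nearer to the trametinib group over all genes tested, and the share over all genes was not computed. Vehicle replicate 3 stood 51.7% below the mean of vehicle replicates 1 and 2 in Psat1, 48.0% below in Gdf15 and 42.2% below in Trib1. In Asns it stood 12.6% below and in Sesn2 7.30% below.

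Genes of tRNA charging that ATF4 is known to induce were mostly lower with trametinib. Of 12 cytosolic tRNA synthetase genes, 11 fell (91.7%, beside 18.4% of all genes tested) and 1 rose, with a median log2 ratio of −0.63. Yars, for tyrosine, fell to 27.0 ± 1.86 CPM with trametinib, against 52.0 ± 0.894 CPM with vehicle (log2 ratio −0.94, adjusted p 0.000178; SD, n = 3 each). Gars, for glycine, fell to 72.2 ± 3.71 CPM with trametinib, against 125 ± 8.35 CPM with vehicle (log2 ratio −0.79, adjusted p 0.000268). Lars, for leucine, fell to 45.9 ± 1.92 CPM with trametinib, against 74.1 ± 2.56 CPM with vehicle (log2 ratio −0.69, adjusted p 0.000299). The riser was Wars, for tryptophan, which is also an interferon-stimulated gene and was singled out after its values were seen (log2 ratio 0.40, adjusted p 0.0201). Its call was lost without trametinib replicates 1 and 2 and without vehicle replicates 1 and 2 (adjusted p 0.0769, 0.0665, 0.0593 and 0.0651); span over the settings 0.00240 to 0.0769. The count of falls was also 11 when any single library was left out.

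Of 11 tested amino acid transporter genes, 6 fell (54.5%, beside 18.4% of all genes tested), none rose and 5 did not pass, with a median log2 ratio of −0.39. Slc7a5, the light chain of a leucine transporter, fell to 13.8 ± 1.75 CPM with trametinib, against 35.7 ± 3.32 CPM with vehicle (log2 ratio −1.37, adjusted p 0.000212). Slc7a1, a transporter of cationic amino acids, fell to 48.2 ± 6.32 CPM with trametinib, against 103 ± 2.20 CPM with vehicle (log2 ratio −1.09, adjusted p 0.000217). Slc1a4, a carrier of serine and other neutral amino acids, fell to 1.95 ± 0.302 CPM with trametinib, against 5.13 ± 1.55 CPM with vehicle (log2 ratio −1.39, adjusted p 0.00332). The count of falls was 3 without trametinib replicate 1 and 3 without vehicle replicate 1. Slc7a11, the cystine transporter, did not pass (log2 ratio −0.20, adjusted p 0.318), and with the replicate block its adjusted p was 0.0245; span over the settings 0.0245 to 0.679.

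Upstream of ATF4, none of the 4 eIF2 kinase genes passed. These are transcript levels, and kinase activity and eIF2 phosphorylation were not measured here. Eif2ak1 had a log2 ratio of 0.10, Eif2ak2 0.14, Eif2ak3 0.20 and Eif2ak4 −0.17 (adjusted p 0.327, 0.163, 0.369 and 0.191). In the list of these kinases with eIF2 and its exchange factor eIF2B, 6 of 14 fell (42.9%, beside 18.4%), 1 rose and 7 did not pass, with a median of −0.19. Eif2b3, an eIF2B subunit, fell to 3.28 ± 0.561 CPM with trametinib, against 9.15 ± 0.674 CPM with vehicle (log2 ratio −1.48, adjusted p 0.000375). The eIF2 subunit genes Eif2s2 and Eif2s1 fell too, with log2 ratios of −0.50 and −0.49 (adjusted p 0.000682 and 0.00184). The riser was Impact, an inhibitor of the kinase GCN2 (log2 ratio 0.26, adjusted p 0.0160), singled out after its values were seen. Impact did not pass without trametinib replicates 1 and 2 or vehicle replicates 1 and 2 (adjusted p 0.0638, 0.0641, 0.0761 and 0.0698; span over the settings 0.00229 to 0.0761).

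Among 14 tested basic leucine zipper genes that can pair with ATF4 or act beside it, 5 fell (35.7%, beside 18.4% of all genes tested), 2 rose and 7 did not pass, with a median of −0.15. Cebpd fell to 3.73 ± 0.862 CPM with trametinib, against 26.9 ± 6.75 CPM with vehicle (log2 ratio −2.85, adjusted p 0.000412), and Cebpb, its paralog, did not pass (log2 ratio −0.08, adjusted p 0.708). Cebpa, whose protein TRIB1 helps to degrade, rose to 74.1 ± 4.59 CPM with trametinib, against 49.0 ± 2.30 CPM with vehicle (log2 ratio 0.60, adjusted p 0.000673). Atf3, a stress-induced repressor, was the other riser (log2 ratio 0.83, adjusted p 0.000551).

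The remaining enzymes of the same metabolism did not follow a single direction. Of 12 tested genes of serine, glycine and folate metabolism outside the members, 5 fell (41.7%, beside 18.4% of all genes tested), 1 rose and 6 did not pass (median −0.13). Mthfd2l, a paralog of Mthfd2, fell to 0.490 ± 0.108 CPM with trametinib, against 1.90 ± 0.217 CPM with vehicle (SD, n = 3 each; log2 ratio −1.95, adjusted p 0.00121). Mat2a, which makes S-adenosylmethionine, fell to 96.8 ± 11.8 CPM with trametinib, against 141 ± 2.45 CPM with vehicle (log2 ratio −0.55, adjusted p 0.00232). Falls in this list numbered 3 without trametinib replicate 1 and 3 without vehicle replicate 2, and rises numbered 2 without vehicle replicate 3. Of 10 tested genes of proline, glutamate and aspartate metabolism, 2 fell (20.0%, near the 18.4% of all genes tested), 3 rose (Glul, Asrgl1 and Arg2) and 5 did not pass (median −0.082). Glul, glutamine synthetase, rose with a log2 ratio of 0.40 (adjusted p 0.00990). Asrgl1, which hydrolyses asparagine, had 6.29 ± 0.425 CPM with trametinib, against 3.62 ± 1.04 CPM with vehicle (log2 ratio 0.80, adjusted p 0.0139), and did not pass without trametinib replicate 2, vehicle replicate 1 or vehicle replicate 2 (adjusted p 0.0556, 0.0568 and 0.0505; span over the settings 0.000521 to 0.0568). Falls in this list numbered 0 without trametinib replicate 1 or vehicle replicate 2, and rises numbered 1 without vehicle replicate 1 or 2.

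In a list named other ATF4 targets, 21 genes were tested. Of these, 4 fell (19.0%, near the 18.4% of all genes tested), 6 rose and 11 did not pass. In either direction 47.6% were called, beside 34.3%, and the median was 0.091. The list was drawn up for this report, and these data do not show which of its genes ATF4 controls. Some of them, such as Sesn1, Sesn3 and Tubb2b, may not be ATF4 targets. Vegfa, an angiogenic growth factor gene, rose to 65.5 ± 2.36 CPM with trametinib, against 28.2 ± 2.05 CPM with vehicle (log2 ratio 1.22, adjusted p 9.80e-05). Sesn3, a paralog of Sesn2, rose to 27.9 ± 1.99 CPM with trametinib, against 10.8 ± 3.18 CPM with vehicle (log2 ratio 1.37, adjusted p 0.00162), opposite in sign to Sesn2. Map1lc3b, an autophagosome protein gene, rose with a log2 ratio of 0.34 (adjusted p 0.00749). Rises in this list numbered 3 without trametinib replicate 1 or 2 or vehicle replicate 1 or 2. Falls numbered 1 without trametinib replicate 1, and 2 without trametinib replicate 2 or vehicle replicate 1 or 2.

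The other arms of the unfolded protein response, run by IRE1 and ATF6, had 4 of 18 genes higher (22.2%, beside 15.8% of all genes tested). None was lower, beside 18.4% of all genes tested, and 14 did not pass, with a median of 0.089. In either direction 22.2% were called, beside 34.3% of all genes tested. Edem1, which draws misfolded glycoproteins to degradation, rose to 363 ± 7.49 CPM with trametinib, against 214 ± 32.9 CPM with vehicle (log2 ratio 0.76, adjusted p 0.00123). Calr, the chaperone calreticulin, rose with a log2 ratio of 0.35 (adjusted p 0.00809), and Creld2 with 0.30 (adjusted p 0.0148). Creld2 did not pass without trametinib replicate 1 or vehicle replicate 2 (adjusted p 0.0632 and 0.0614; span over the settings 0.0121 to 0.0632), and 2 genes of the list rose without trametinib replicate 1. Hspa5, the main chaperone of the endoplasmic reticulum, had a log2 ratio of 0.085 and Xbp1, the factor spliced by IRE1, −0.14 (adjusted p 0.392 and 0.197). Under other settings 1 gene of the list fell. It was Xbp1 without vehicle replicate 3 (log2 ratio −0.22, adjusted p 0.0124) and Sel1l with the replicate block (log2 ratio −0.18, adjusted p 0.0320).

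**Figure D5:**
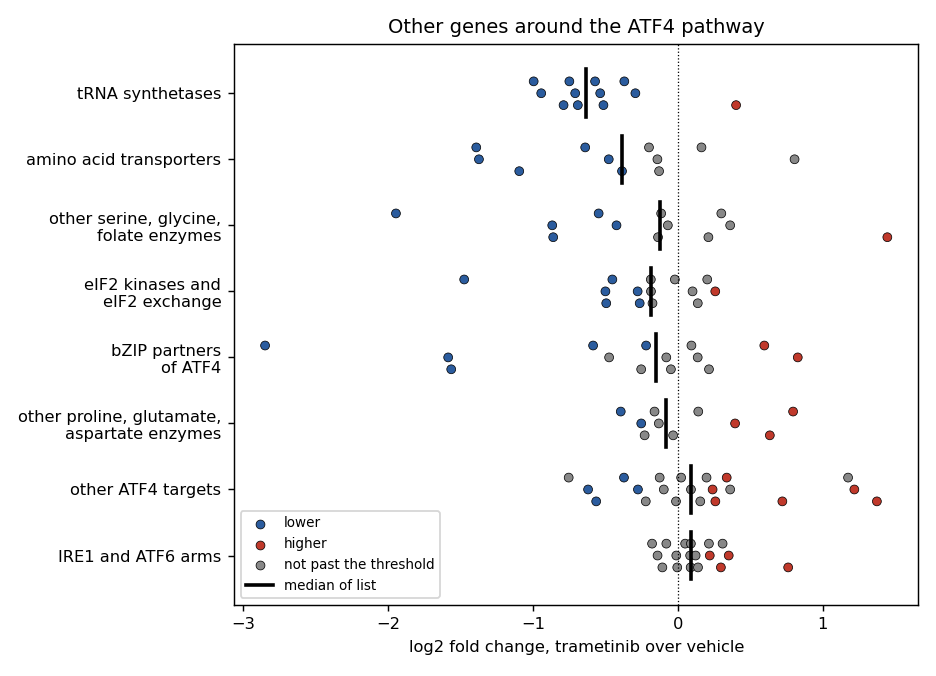
Log2 ratio, trametinib over vehicle, of the tested genes in 8 other lists around the ATF4 pathway, 1 point per gene. Blue marks a fall, red a rise, grey a gene that did not pass, and the black bar the median of the list. The tRNA synthetases lie to the left of 0 apart from Wars, and the IRE1 and ATF6 arms centre near 0.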

How the data were processed

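The authors deposited 1 table of raw counts, whole numbers of reads per gene in each of the 6 libraries, without normalization. Per the submitters' processing notes, the build was mm10 and the tools included featureCounts 1.6.4 and HISAT2 2.1.0, with DESeq2 1.24.0 in R 3.6.0. Not given in the sources used here are the annotation, the strand setting and how multi-mapping reads were treated. Of 25354 entries, 310 that repeated an identifier with the same values were dropped. Symbols, positions and exonic lengths came from GENCODE M21 (GRCm38, the build named mm10), which held 25033 of 25044 genes.

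Genes were kept by filterByExpr, scaled by TMM and tested in edgeR 4.0.16 (quasi-likelihood test, robust, with group alone in the model) in R 4.3.3, after the procedure was tested on simulated data. P values were adjusted by Benjamini-Hochberg across the 11286 genes. Values after ± are SD with n = 3. SE is the absolute log2 ratio over the root of F, and 95% intervals use the t distribution of the fit. Library totals ran from 17453778 to 19648467 counts, and chi-square per gene within a group was 6.13 to 29.8, so none was a copy.

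The members and lists were chosen with earlier results of these data known, and are described by counts and medians. All members were described. Of each other list, up to 3 called genes with the smallest p were named, and other genes of these lists were named after their values were seen. Some genes that this rule takes are not reported here.

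Both groups carry replicate numbers 1 to 3. Deviations from group means correlated at 0.339, 0.393 and 0.285 for same-numbered libraries and at −0.223 to −0.0724 for the rest, so the numbers were taken to pair the libraries, from the data and not the labels. The main fit did not use this pairing, because the labels do not state it. Its calls, SE and intervals are therefore unpaired. The replicate block was an alternative, with DESeq2 1.42.0, limma-voom (limma 3.58.1), median-ratio size factors, no filter, 1 CPM or more in 3 or more libraries as the filter, and each library left out. For the other lists these alternatives were added after the data were seen.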

Additional observations from a re-analysis of the deposited data

How the results depend on the processing

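The 29 members kept their direction and their side of the threshold with median-ratio size factors and with DESeq2. With the replicate block 28 did, and Ppp1r15a passed. With no filter 28 did, and with limma-voom 28 did, Gdf15 being lost in both. Members called numbered 17 with the block and 16 without it, and genes called 4837 with the block and 3869 without it. When single libraries were left out, genes called numbered 2428 to 4663, lower 1360 to 2453 and higher 1068 to 2210, the fewest without trametinib replicate 1 and the most without vehicle replicate 3, with 2538 in all without vehicle replicate 1. Members that rose numbered 1 to 4, stress factors and effectors that rose 1 to 3, and transamination and breakdown genes called 0 to 1, all of them higher. Amino acid synthesis genes that fell numbered 6 in every setting. Signs turned, without a call, for Atf5 (−0.012 to 0.11) and Cebpzos (−0.12 to 0.24).

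In the other lists, leaving out single libraries gave 0 to 1 rises for eIF2, 0 to 1 for tRNA synthetases, 3 to 7 for other ATF4 targets, 1 to 2 for folate enzymes, 1 to 4 for proline enzymes and 2 to 5 for the IRE1 and ATF6 arms. Falls numbered 3 to 7 for transporters, 1 to 4 for other ATF4 targets, 3 to 5 for folate enzymes, 0 to 3 for proline enzymes and 0 to 1 for the IRE1 and ATF6 arms. Falls were 1 for proline enzymes with DESeq2 and 1 for the IRE1 and ATF6 arms with the block. The cause was not tested. Members under 60 counts were not read for change at this depth.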
